A study of Mus musculus with 27 samples.

Results

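Mouse genes with symbols of the form Zfp followed by a number are zinc finger genes, and the ends of these genes are described here by their DNA methylation in hepatocytes of 9 inbred strains. The members are all positions listed in all 27 samples that lie within 1000 bp of either end of an autosomal protein-coding Zfp gene in the GRCm38 gene table. The rule gave 388 genes with 776 ends, out of 41322 ends of all 20661 autosomal protein-coding genes. The rule uses no methylation value, though it was chosen with earlier results of these data known. The samples were liver hepatocytes of female mice aged 12 weeks, 3 per strain, labelled as biological replicates, and the labels name no treatment. The laboratory strains were C57BL/6J, DBA/2J, A/J, 129S1/SvImJ, NZO/HlLtJ and NOD/ShiLtJ. Wild mice gave rise to WSB/EiJ, CAST/EiJ and PWK/PhJ. No strain is a control. DNA was cut with MspI, which cuts at CCGG, and read after bisulfite treatment, so that each value is the percent of reads methylated at a cytosine of a CpG.

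Most Zfp genes encode proteins with C2H2 zinc fingers that bind DNA, and many of these also carry a KRAB domain. A KRAB domain recruits TRIM28 (also called KAP1), which brings the histone methyltransferase SETDB1 and leads to silent chromatin, often on transposable elements. The family has grown by tandem duplication, so that many of its genes lie side by side in clusters and resemble each other in sequence. A few members do other work: the Zfp36 genes encode CCCH fingers that bind RNA. Promoters that are rich in CpG are usually unmethylated in healthy tissue.

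A gene was called clustered when it belonged to a run of at least 3 Zfp genes with at most 200 kb between neighbours, paired in a run of 2 and single otherwise. There were 197 clustered genes in 29 runs, 44 paired genes and 147 single genes. The strand of a gene was known for 325 genes from the RefSeq promoter table. Their 2 ends are called the start and the far end, and the 126 ends of the other 63 genes are kept apart as ends without strand. An end was measured when at least 5 positions near it were listed in all samples. Of the 776 Zfp ends, 303 on 272 genes were measured, 46 had 1 to 4 such positions and 427 had none. Of the 325 starts 218 (67.1%) were measured, against 60.2% of other starts, and of the 325 far ends 33 (10.2%), against 14.05%. The start was measured in 104 of 174 clustered genes (59.8%) and in 95 of 117 single genes (81.2%). The value of an end is the mean percent over its positions. The number of reads behind each percent is unknown, so no counting interval is given.

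RefSeq promoter sequences on GRCm38 show what these ends look like, from 250 bases before the start to 50 bases after it. Capitals mark the CpGs listed in all 27 samples. Zfp974 (chr7:27929409-27929708, minus strand) is shown because PWK/PhJ differed at these very CpGs, and Zfp42 (chr8:43306960-43307259, minus strand) because its marked CpGs were partly methylated. Zfp36 (chr7:28379179-28379478, minus strand) is a start with almost no methylation in any strain. Zfp971 (chr2:178023034-178023333, plus strand) and Zfp970 (chr2:177464492-177464791, plus strand) are shown because they are near copies of each other and have no CpG listed in this window. Their listed positions lie further into the gene.
Zfp974: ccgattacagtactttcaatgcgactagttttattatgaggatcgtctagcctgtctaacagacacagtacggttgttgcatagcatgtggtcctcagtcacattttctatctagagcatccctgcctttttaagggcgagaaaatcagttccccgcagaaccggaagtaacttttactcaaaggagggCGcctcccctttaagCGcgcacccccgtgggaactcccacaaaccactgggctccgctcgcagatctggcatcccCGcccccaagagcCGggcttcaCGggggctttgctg
Zfp42: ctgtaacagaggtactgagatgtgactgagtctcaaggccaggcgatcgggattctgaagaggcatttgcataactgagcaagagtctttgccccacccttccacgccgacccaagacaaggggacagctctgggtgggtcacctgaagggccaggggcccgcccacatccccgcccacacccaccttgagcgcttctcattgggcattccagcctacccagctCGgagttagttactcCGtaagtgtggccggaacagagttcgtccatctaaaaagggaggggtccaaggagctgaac
Zfp36: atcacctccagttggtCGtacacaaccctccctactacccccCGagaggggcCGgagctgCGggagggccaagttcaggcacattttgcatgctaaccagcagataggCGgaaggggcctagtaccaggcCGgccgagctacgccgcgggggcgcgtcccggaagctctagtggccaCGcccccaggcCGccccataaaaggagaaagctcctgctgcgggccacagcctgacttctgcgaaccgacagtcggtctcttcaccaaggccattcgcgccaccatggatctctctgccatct
Zfp971: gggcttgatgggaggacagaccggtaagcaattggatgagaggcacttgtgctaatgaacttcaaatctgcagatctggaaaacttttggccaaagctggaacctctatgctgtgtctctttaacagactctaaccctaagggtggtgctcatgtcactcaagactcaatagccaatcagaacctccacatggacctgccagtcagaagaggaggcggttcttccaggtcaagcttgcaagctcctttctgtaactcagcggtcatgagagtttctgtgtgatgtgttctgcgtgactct
Zfp970: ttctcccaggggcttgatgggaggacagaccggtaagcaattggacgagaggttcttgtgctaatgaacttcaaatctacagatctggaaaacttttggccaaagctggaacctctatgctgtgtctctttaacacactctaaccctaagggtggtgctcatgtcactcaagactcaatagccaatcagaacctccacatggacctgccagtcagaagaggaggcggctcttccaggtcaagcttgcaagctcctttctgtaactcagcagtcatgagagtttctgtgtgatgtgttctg
The Zfp971 and Zfp970 promoters had the same base in 284 of 309 aligned columns (91.9%).

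In sequence the promoters of the Zfp genes carried CpGs at 0.62 of the number expected from base composition (median of 325), against 0.60 for the 16131 other autosomal protein-coding promoters. The letters CCGG, the MspI site, stood in 236 (72.6%) of the Zfp promoters and in 63.3% of all 16456 promoters. Starts were measured for 75% of Zfp promoters with CCGG and for 46.1% of those without it. Clustered genes had CCGG in 67.2% of promoters and single genes in 81.2%. TGCCGC, the core of the motif bound by ZFP57, stood on either strand of 50 Zfp promoters (15.4%) and of 13.95% of all promoters. It was found in 24 clustered, 1 paired and 25 single promoters, and in none of the 8 starts called different among strains below. A stretch of 30 bases was shared with a promoter elsewhere in 68 Zfp promoters (20.9%), against 11.4% of the others. The share was 27.6% in clustered, 35.3% in paired and 6.84% in single genes. Among starts without 5 listed positions it was 46.7%. The gene table and the promoter table do not always give the same start: in 97 of the 325 genes they lay more than 100 bp apart.

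Zfp starts were nearly free of methylation. The 218 measured starts had a median level of 0.68%, and 172 of them (78.9%) lay below 2.5%. The 9717 measured starts of other genes had a median of 0.74%, and 73.1% lay below 2.5%. A level of 10% was exceeded by 15 Zfp starts (6.88%) and by 11.02% of other starts, and 50% by 3 Zfp starts (1.38%) and by 5.39% of others. These shares describe the genes, and their difference was not tested. The mean over Zfp starts was 3.45 ± 0.37% (SD over 27 samples), with samples between 3.00% and 4.48%. The mean over other starts was 6.98 ± 0.285%, with samples between 6.58% and 7.56%.

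Far ends were mostly methylated. The 33 measured far ends of Zfp genes had a median of 88.4%, and 21 of them exceeded 50%. Other far ends had a median of 75.6% (n = 2266). Among ends whose window shares no position with another gene, the medians were 88.8% (24 Zfp far ends) and 85.8% (1357 others). The 15 clustered far ends had a median of 56.5%, with 8 above 50%, and the 18 single ones 89.2%, with 13 above 50%, a difference that was not tested. Of the 33, 7 lay below 2.5%, among them Zfp53 (0.47%, 47 positions), Zfp78 (0.66%), Zfp174 (0.84%) and Zfp36 (1.01%). The highest were Zfp109 (97.3%), Zfp566 (97.1%) and Zfp69 (96.9%). Far ends with an intermediate mean were Zfp628 (39.9%), Zfp335 (44.9%) and Zfp653 (56.5%). At Zfp628 and Zfp335 that mean joins unlike positions. Of 37 positions at Zfp628, 20 lay above 50% and 16 below 10%, and of 26 at Zfp335, 12 and 12. The 52 measured ends without strand had a median of 0.79%, with 14 above 10%.

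**Figure D1:**
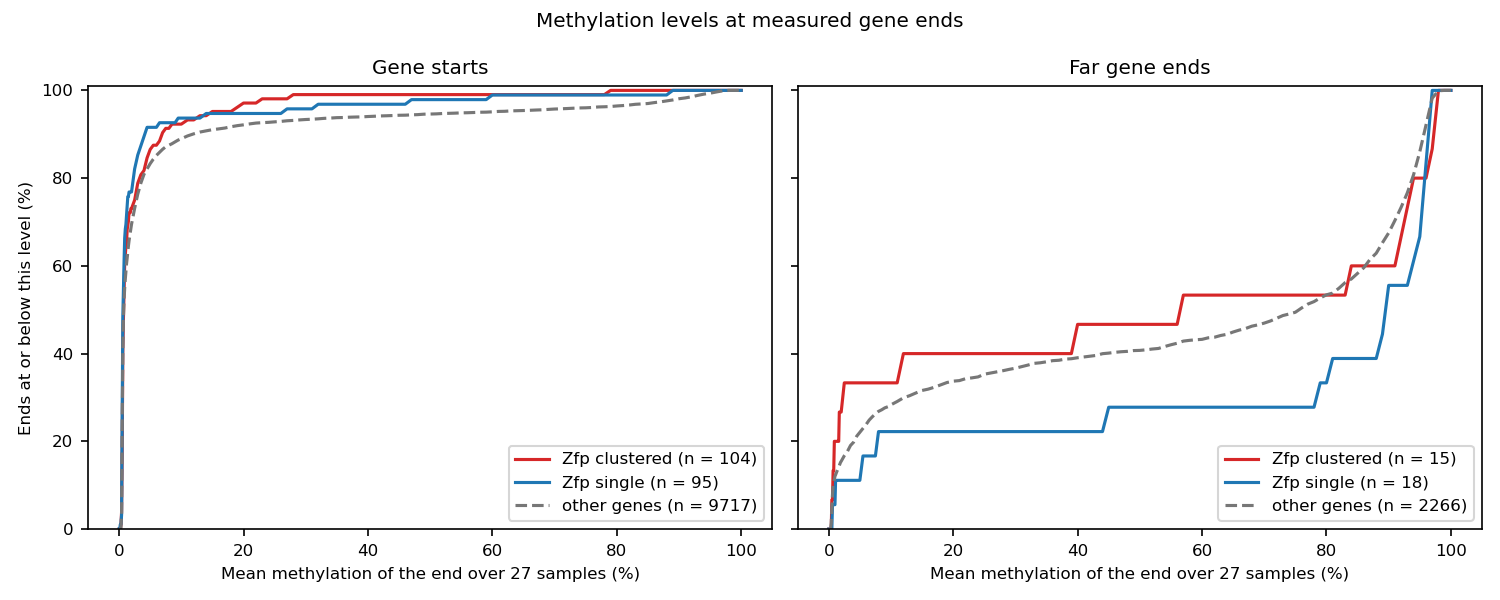
Share of measured ends (y axis, %) at or below each mean methylation level over 27 samples (x axis, %), for starts (left) and far ends (right). Red and blue lines are clustered and single Zfp genes, and the dashed line is all other genes. Of the Zfp starts 78.9% lie below 2.5%, against 73.1% of other starts.

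Clustered starts averaged slightly lower than single starts in 8 strains and higher in PWK/PhJ, while their median over all samples was the higher. The 104 clustered starts averaged 3.31%, with a median of 0.73% and 8 (7.69%) above 10%. The 95 single starts averaged 3.90%, with a median of 0.62% and 6 (6.32%) above 10%. The 19 paired starts averaged 1.97%, with 1 above 10%. Clustered minus single was -0.592 ± 0.592 points (SD over 27 samples of 9 strains). By strain it ran from -1.35 ± 0.0582 points in CAST/EiJ to -0.313 ± 0.129 in NZO/HlLtJ, and it was 0.658 ± 0.133 in PWK/PhJ (SD, n = 3 each). Its direction over all samples depended on the window, the weighting and the minimum number of positions: with windows of 2 kb it was 0.403 points, with positions weighted equally 0.175, with at least 3 positions 1.15 and with at least 10 positions -0.0250. The difference was above 0 in 3 of 27 samples, which were the 3 PWK/PhJ samples. The genes are few and differ widely in level, so these means lean on single genes. The highest single start, Zfp652, had 88.4%. The highest clustered start, Zfp872, had 78.8%, but 34.3% in CAST/EiJ. The SDs are over samples and do not measure the spread between genes, and the difference was not tested.

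The mean over clustered starts was highest in PWK/PhJ, and 3 starts described further on, Zfp971, Zfp811 and Zfp974, made up that height. Its samples had means of 4.72%, 4.70% and 5.06% over the 104 starts, and the strain mean was 4.83 ± 0.206% (SD, n = 3). WSB/EiJ was next at 3.62 ± 0.23%, and NOD/ShiLtJ lowest at 2.54 ± 0.0963%. The other 6 strains lay between 2.76% (CAST/EiJ) and 3.25% (A/J). The low means of NOD/ShiLtJ and CAST/EiJ include Zfp872, a clustered start with 9.65% and 34.3% there. In the other strains Zfp872 had 88.3 to 97.3%, and the order of strains was not recomputed without it. The 3 PWK/PhJ samples were above the other 24. Over the 95 single starts the strain means ran from 3.53% (NZO/HlLtJ) to 4.17% (PWK/PhJ), and the PWK/PhJ samples overlapped those of other strains. Standing above the other 24 samples was not particular to clustered Zfp starts. Over the 9717 starts of other genes the PWK/PhJ samples had 7.44 to 7.56%, and the others 7.40% or less. Over all autosomal positions listed in all samples they had 28.05 to 28.23%, and the others 27.95% or less. Of the 4.83 points in PWK/PhJ, Zfp971, Zfp811 and Zfp974 gave 1.67 ± 0.182, against 0.0325 to 0.330 in the other strains. The other clustered starts, Zfp872 among them, gave 3.16 ± 0.116 points in PWK/PhJ. That lay within the range of the other strains (2.43 in CAST/EiJ to 3.52 in WSB/EiJ). The 3 genes were picked because PWK/PhJ is high there, so this split is arithmetic and no test.

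**Figure D2:**
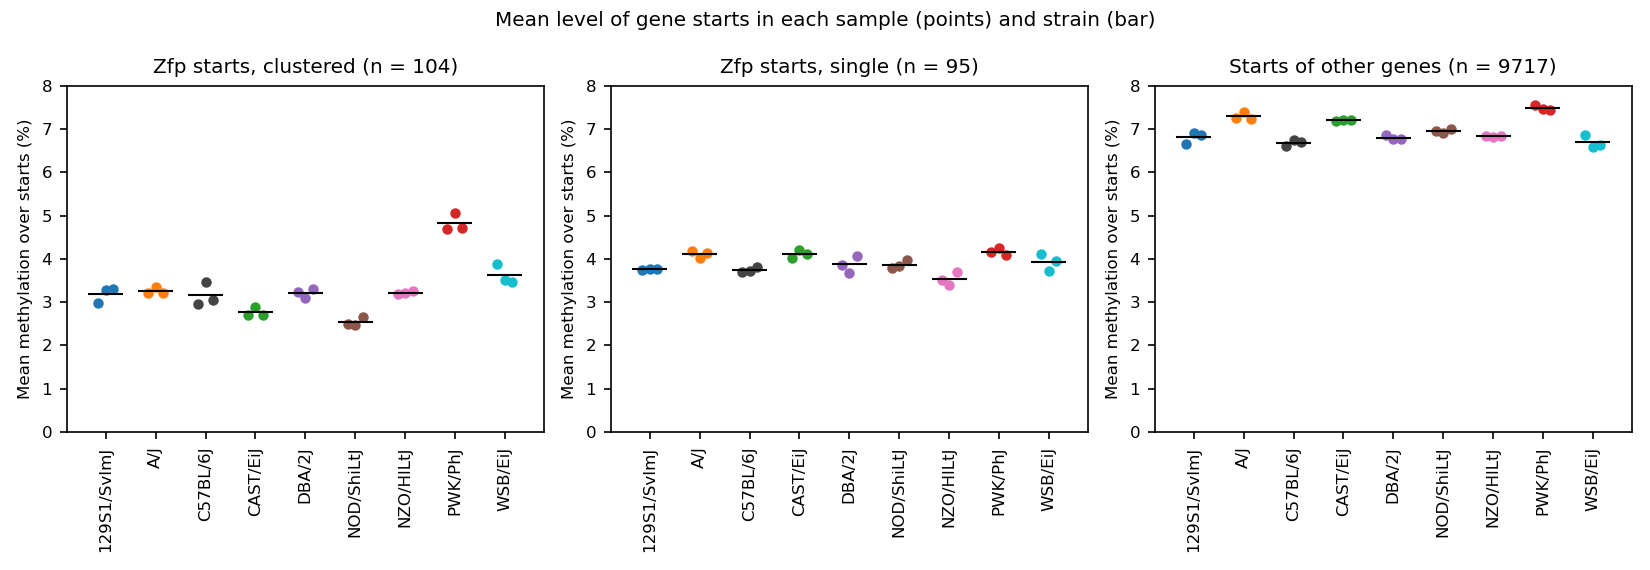
Mean methylation (y axis, %) over clustered Zfp starts, single Zfp starts and starts of other genes in each of the 27 samples (points), by strain (x axis), with the strain mean as a bar. PWK/PhJ lies above every other strain at clustered starts, at 4.83% against 3.62% or less, and 1.67 points of that mean come from Zfp971, Zfp811 and Zfp974. It is also highest at starts of other genes, at 7.49% against 7.30% or less.

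Strains were compared end by end with a moderated F test (limma; strain as the factor) on log2((percent + 5)/(100 - percent + 5)). An end was tested when its mean over all samples was at least 2.5 points from 0 and from 100%, and it was called when its Benjamini-Hochberg adjusted p over all ends tested fell under 0.05 and its strain means spanned 25 points or more. Of 5925 ends of all genes tested, 357 were called (6.03%). Of the 89 Zfp ends tested, 10 were called (11.2%). By the adjusted p alone 43 Zfp ends passed (48.3%), against a background of 43.2%, and with a span of 10 points 23 passed (25.8%), against 20.3%. Most Zfp ends never entered the test, since 214 of the 303 measured lay too near 0 or 100%. An end that is unmethylated in most strains enters only through the strain in which it is high, so the share called is a share of ends that had room to differ.

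The 10 called ends were 8 starts, 1 far end and 1 end without strand. Among 2658 starts tested over all genes 142 were called (5.34%), and among 46 Zfp starts 8 (17.4%). Among 1898 far ends over all genes 135 were called (7.11%), and among 26 Zfp far ends 1 (3.85%). Clustered genes gave 7 of 43 tested ends, paired genes 0 of 6 and single genes 3 of 40. By adjusted p alone, 25 of 43 clustered, 2 of 6 paired and 16 of 40 single ends passed, against 43.2% of all ends tested. At an unadjusted p under 0.05, 2 of 6 paired ends passed, against 51.2%. At an unadjusted p under 0.05 with no minimum span, 49 of the 89 Zfp ends passed (55.1%), against 51.2% of all ends. None of the 10 shared its positions with another gene's window, and neither did 78 of the 89 Zfp ends tested. PWK/PhJ was the highest strain in 4 of the 10 and NOD/ShiLtJ the lowest in 4, and CAST/EiJ or PWK/PhJ was highest in 6. Such counts were not made over the called ends of all genes, so they cannot be read as particular to Zfp ends. At Zfp971 and Zfp811 NOD/ShiLtJ was only the lowest of several low strains. It had 0 to 0.25% at Zfp971, where C57BL/6J had 0 to 0.39%, and 2.96% at Zfp811, where WSB/EiJ had 4.72%. Without CAST/EiJ and PWK/PhJ 7 of 83 Zfp ends were called (8.43%), against 3.14% of all ends tested. Zfp811 was not called there, and Zfp971 and Zfp974 lay too near 0% to be tested. The count was 5 of 45 with windows of 500 bp (11.1%, against 7.49% of all ends), 6 of 68 with at least 10 positions (8.82%, against 4.59%), and 6 of 82 without genes whose promoter shares a 30-base stretch with another (7.32%, against 5.82% of all ends). That last setting leaves out Zfp971, Zfp995, Zfp996 and Zfp974.

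**Figure D3:**
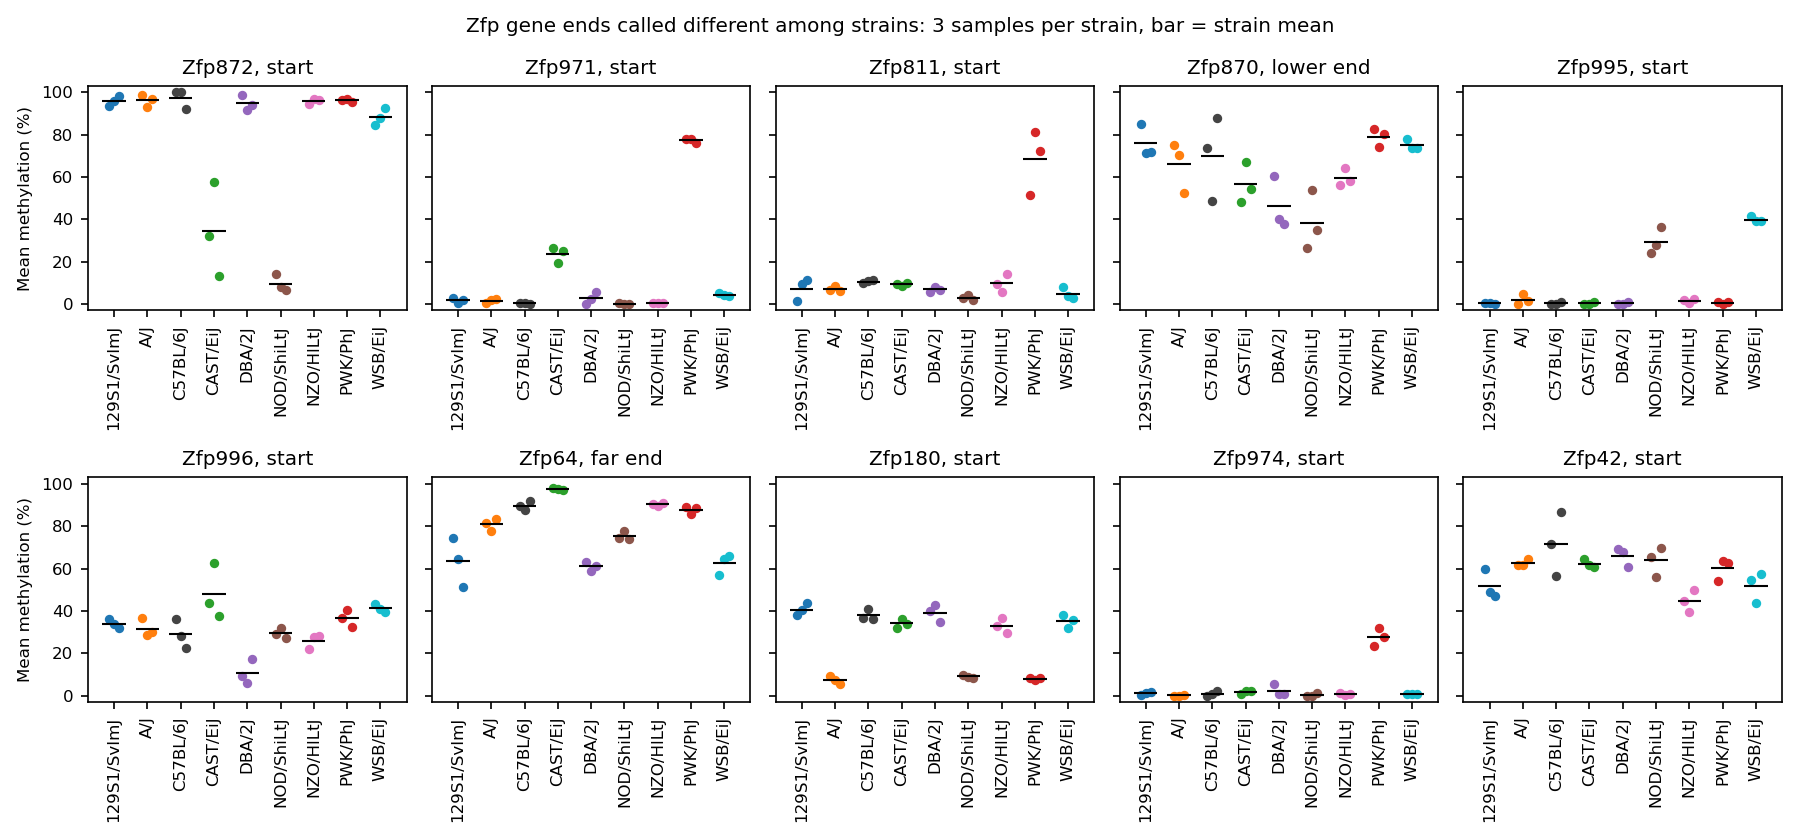
Mean methylation (y axis, %) of the 10 called Zfp ends in each of 3 samples per strain (points), with the strain mean as a bar. Zfp971, Zfp811 and Zfp974 are high in PWK/PhJ, Zfp995 is high in WSB/EiJ and NOD/ShiLtJ, and Zfp180 is low in A/J, NOD/ShiLtJ and PWK/PhJ.

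Zfp971, a clustered gene on chromosome 2 (start at 178023284, plus strand), was methylated in PWK/PhJ, in part in CAST/EiJ and hardly at all in the other strains. Over its 16 positions, 244 to 469 bp into the gene span, the PWK/PhJ samples had 78.1%, 77.8% and 76.1%. The CAST/EiJ samples had 26.4%, 19.2% and 24.8%, and the other 21 samples lay between 0% and 5.89%, with a median of 0.60%. The strain means spanned 77.3 points (limma adjusted p = 2.8e-14). No sample of PWK/PhJ or CAST/EiJ overlapped any other strain. Along the gene the PWK/PhJ level had a step: the first 4 positions had strain means of 34.7 to 43.5%, 1 position between had 61.6%, and the last 11 had 81.8 to 96.7%. CAST/EiJ had 1.19 to 2.08% at the first 4. From 374 bp on CAST/EiJ reached 55.5%, but at the adjacent positions 448 and 449 bp it had 1.42% and 0.96%. In PWK/PhJ those same 2 positions had 95.3% and 93.4%.

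Zfp971 has close relatives, so its values are uncertain where reads of near copies cannot be told apart. Of the 30-base stretches in its promoter, 74.5% occur in promoter windows elsewhere, 35 of them. For Zfp970, a single gene on the same chromosome, 100% do. Zfp970 (start at 177464742) was measured at 6 positions and did not reach the span of 25 points (21.5 points, limma adjusted p = 2.6e-05). Its samples had 27.4%, 20.5% and 23.9% in PWK/PhJ, 21.8%, 21.7% and 31.1% in WSB/EiJ and 17.9%, 21.4% and 18.2% in NOD/ShiLtJ. The NZO/HlLtJ samples had 4.58%, 1.60% and 3.99%, and CAST/EiJ 7.16%, 1.73% and 3.64%. So PWK/PhJ was among the high strains at both relatives, while CAST/EiJ was second at Zfp971 and among the lowest at Zfp970. The gene neighbours of Zfp971 in its run, Zfp972 and Zfp931, had no shared position at either end. The part of shared sequence in these values was not tested.

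Zfp974, in a run of 8 genes on chromosome 7 (end of the gene span at 27929699, minus strand), had the same strain on top at a lower level. The PWK/PhJ samples had 27.7%, 23.5% and 31.9% over 13 positions, and the other 24 lay between 0% and 5.66%, with a median of 0.70%. The span was 27.6 points (limma adjusted p = 1.9e-09) and no sample of another strain reached PWK/PhJ. The RefSeq start lies 241 bp inside the gene span, so that 10 of the 13 positions fall on the 5 CpGs capitalised in the promoter above. At these the strain means of PWK/PhJ ran from 19.3 to 36.1%, with 27.1% on average, and no other strain exceeded 2.30% on average. At the other 3 positions, further downstream, PWK/PhJ had 28.9 to 30.7%. PWK/PhJ was the highest strain at 13 of 13 positions. The promoter shares 2.58% of its 30-base stretches with 1 other promoter.

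Zfp811, in a run of 12 genes on chromosome 17 (end of the gene span at 32810057, minus strand), was also high in PWK/PhJ. Its samples had 72.2%, 51.6% and 81.1% over 6 positions, 364 to 903 bp into the gene, and the other 24 lay between 1.28% and 14.1%, with a median of 8.04%. The span was 65.4 points (limma adjusted p = 7.0e-08). The PWK/PhJ samples differed from each other more than the other strains did, yet the lowest of them stood far above the rest. Without CAST/EiJ and PWK/PhJ the remaining strains spanned 7.62 points and were not called (limma adjusted p = 0.141). Its promoter shares no 30-base stretch with another.

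Zfp971 and Zfp811 were set apart in 1 strain, meaning that all 3 samples lay at least 25 points beyond the other 24. They were 2 of 89 Zfp ends, against 0.371% of all ends tested (22 of 5925), and 13 of those 22 ends were set apart in PWK/PhJ. With a gap of 10 points Zfp974 joined them, 3 of 89 against 1.62%. No Zfp end was set apart in a strain by lower values.

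Zfp995, in a run of 18 genes on chromosome 17 (end of the gene span at 21910085, minus strand), was methylated in a pair of other strains. Over 10 positions the WSB/EiJ samples had 41.6%, 39.0% and 39.0%, and the NOD/ShiLtJ samples 23.9%, 27.9% and 36.4%. The other 21 samples lay between 0% and 4.67%, with a median of 0.48%. The span was 39.6 points (limma adjusted p = 2.0e-12), and neither strain overlapped the 7 low ones. At 9 of the positions, 433 to 504 bp into the gene span, WSB/EiJ had 39.99 to 48.9% and NOD/ShiLtJ 28.6 to 39.3%. At the tenth, 7 bp further on, they had 1.56% and 0%. That sharp edge was common to both strains.

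Zfp180, first in a run of 12 genes on chromosome 7 (start at 24081877, plus strand), split the strains into a low and an intermediate set. Over 20 positions the samples of A/J had 9.42%, 7.51% and 5.63%, of NOD/ShiLtJ 9.71%, 8.83% and 8.47%, and of PWK/PhJ 8.20%, 8.36% and 7.26%. The other 18 samples lay between 29.6% and 43.5%, with a median of 36.4%. The span was 33.1 points (limma adjusted p = 4.9e-13), with a gap between the sets and no overlap. The 17 positions from 212 to 332 bp into the gene carried the difference: A/J had 1.19%, NOD/ShiLtJ 1.74% and PWK/PhJ 1.30%, and the other strains between 29.9% (NZO/HlLtJ) and 39.2% (129S1/SvImJ). The 2 positions upstream, of which the nearer lies 520 bp before the start, were methylated in each strain, with strain means of 65.1 to 77.04% over both. A position 46 bp into the gene was at 0% in 8 strains and at 1.67% in NZO/HlLtJ.

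The methylated strains were not uniform along Zfp180. At the positions 212, 232 and 239 bp into the gene 129S1/SvImJ had 81.5%, 90.8% and 62.7%, while CAST/EiJ had 0% at each. From 249 bp on CAST/EiJ had up to 55.7%. The strands also differed. At 6 CpGs listed on both strands the first strand had 45.99 ± 3.05% and the second 25.8 ± 7.94% in C57BL/6J (SD, n = 3), and 53.2 ± 7.24% and 21.7 ± 6.05% in CAST/EiJ. The first strand was the higher in all 6 strains of the intermediate set. In A/J the strands had 0.75% and 1.39%. The cause of the strand difference was not tested.

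Zfp872, in a run of 5 genes on chromosome 9 (start at 22188166, plus strand), had the widest span of the tested Zfp ends and was methylated in most strains. Its 5 positions lie 758 to 637 bp before the start. The NOD/ShiLtJ samples had 14.3%, 8% and 6.67%, and the CAST/EiJ samples 57.6%, 32.0% and 13.3%. The other 21 samples lay between 84.6% and 100%, with a median of 96.0%. The span was 87.7 points (limma adjusted p = 2.5e-09). NOD/ShiLtJ and CAST/EiJ overlapped each other and no other strain. NOD/ShiLtJ was uniform over the 5 positions, at 8.89 to 11.4%, and CAST/EiJ was not, at 16.7 to 66.7%. The promoter itself has 17 CpGs, and none was listed in all samples.

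**Figure D4:**
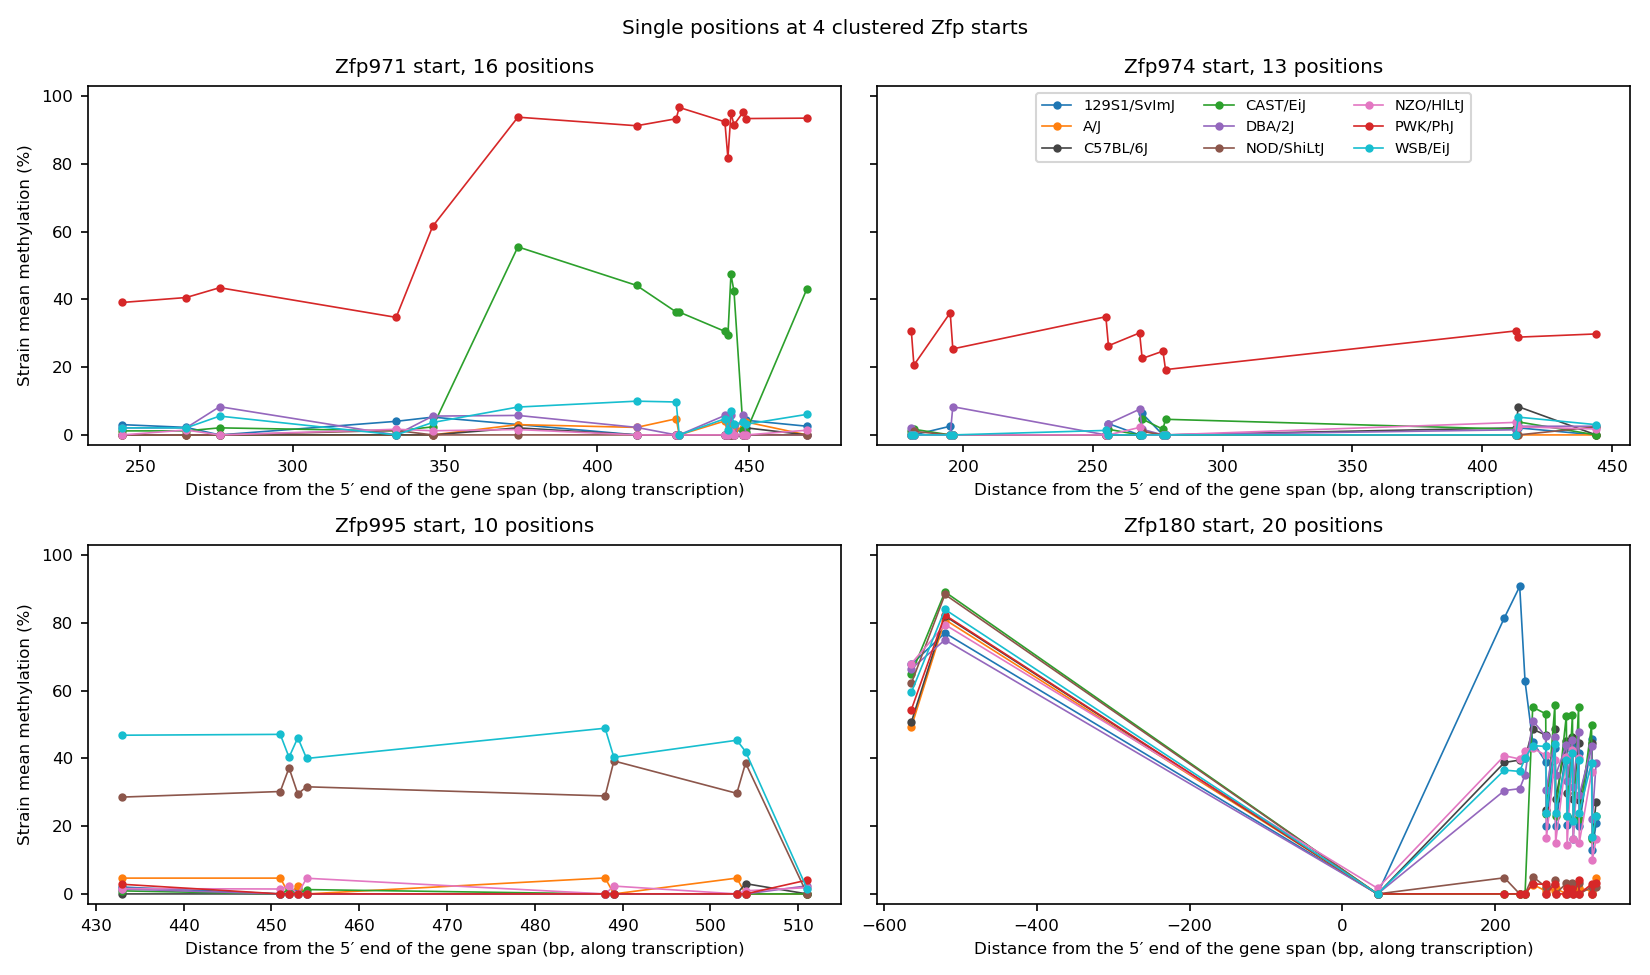
Strain mean methylation (y axis, %) at each position listed in all samples near the starts of Zfp971, Zfp974, Zfp995 and Zfp180, by distance from the 5′ end of the gene span (x axis, bp). The lines join neighbouring positions; at Zfp971 PWK/PhJ steps from about 40% to above 80%, and at Zfp180 A/J, NOD/ShiLtJ and PWK/PhJ stay near 0 downstream of the start.

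Zfp870, in the run of 12 genes on chromosome 17 that also holds Zfp811, was called at its lower end (32879221, strand not in the table) with much scatter. Over 6 positions the PWK/PhJ samples had 80.5%, 82.5% and 74.4%, and the NOD/ShiLtJ samples 26.6%, 53.7% and 35.2%. The DBA/2J samples had 60.6%, 40% and 37.7%, and the C57BL/6J samples 73.8%, 48.8% and 87.7%. The span was 40.6 points (limma adjusted p = 5.2e-03), and with windows of 2 kb 26.2 points. Its mean SD within strains, 9.54 points, was the largest of the measured Zfp ends, and samples of most strains overlapped. PWK/PhJ and NOD/ShiLtJ themselves did not overlap.

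Single genes gave the remaining called ends. Zfp996 on chromosome 12 (start at 18387491, plus strand) was partly methylated in each strain. Over 8 positions the DBA/2J samples had 9.04%, 6.09% and 17.3%, and the CAST/EiJ samples 62.5%, 37.5% and 43.8%. The other 21 lay between 22.1% and 43.0%, with a median of 31.9%, and the span was 37.1 points (limma adjusted p = 4.5e-05). DBA/2J lay below the other strains without overlap, and CAST/EiJ overlapped PWK/PhJ and WSB/EiJ and lay above the rest. The CAST/EiJ mean rests on coarse values: at 3 of the positions it was 50% and at 2 it was 0%.

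Zfp64, a gene on chromosome 2, was called at its far end (168893331, minus strand) over 40 positions that lie 561 to 996 bp before that end, inside the gene span. The CAST/EiJ samples had 98.1%, 97.6% and 97.0%, and the DBA/2J samples 63.3%, 58.7% and 61.2%. WSB/EiJ had 56.9%, 64.3% and 65.9%, and 129S1/SvImJ 74.6%, 64.5% and 51.3%. The span was 36.5 points (limma adjusted p = 9.1e-10), with CAST/EiJ above all other samples and DBA/2J overlapping WSB/EiJ and 129S1/SvImJ. A/J, C57BL/6J, NOD/ShiLtJ, NZO/HlLtJ and PWK/PhJ had strain means of 75.3 to 90.4%. In single positions 32 of the 40 were called. The start of Zfp64 lay between 0% and 0.92% in all 27 samples.

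Zfp42, known as Rex1 and used as a marker of pluripotent cells, is silent in most adult tissues. Its start on chromosome 8 (43307009, minus strand) was methylated at an intermediate level, 59.4% over 14 positions. The C57BL/6J samples had 71.4%, 56.4% and 86.9%, the NZO/HlLtJ samples 44.6%, 39.3% and 49.9%, and the other 21 lay between 43.9% and 69.7%, with a median of 61.6%. The span was 26.99 points (limma adjusted p = 1.7e-02), and the 2 strains did not overlap each other. The call was the weakest of the 10 and was lost without C57BL/6J (21.4 points), without C57BL/6J replicate 4 (21.4 points) and without NZO/HlLtJ replicate 2 (24.3 points). It was also lost with windows of 2 kb (18.03 points) and with strands averaged (limma adjusted p = 0.0636), and with windows of 500 bp the span was 45.5 points. Level was higher away from the start: the 2 CpGs in capitals in the promoter, 26 and 11 bp before the start, had strain means of 4.76 to 45.8%. Positions 528 to 565 bp before it had 71.1 to 82.7%, and a position 881 bp into the gene 92.8 to 98.2%. The far end of Zfp42 had 88.4%, with a span of 7.22 points that did not pass (limma adjusted p = 0.0950).

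Single positions were tested in the same way. Within 1000 bp of Zfp ends lay 14842 shared positions, of which 1618 were tested and 157 called (9.70%). The share over all autosomal positions tested was 5.26%, and within 1000 bp of any protein-coding gene end 5.14%. Clustered genes had 89 called of 668 tested (13.3%), paired genes 6 of 97 and single genes 62 of 853 (7.27%). Positions near an end are not independent: the 10 called ends alone held 95 of the 157. Without CAST/EiJ and PWK/PhJ 78 of 1580 were called (4.94%). In that setting the share over all autosomal positions was 1.87%, and within 1000 bp of any protein-coding gene end 1.92%. With a span of 50 points 4.64% near Zfp ends were called, against 2.21% near all gene ends. With windows of 500 bp it was 8.33% against 5.69%, and with 2 kb 9.32% against 5.16%. At Zfp971 16 of 16 positions were called and at Zfp180 16 of 19 tested. Zfp64 had 32 of 40, Zfp995 9 of 9, Zfp872 5 of 5 and Zfp811 5 of 6. Fewer were called at Zfp974 (7 of 13), Zfp870 (3 of 6), Zfp996 (1 of 8) and the start of Zfp42 (1 of 14).

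The ends next below the span of 25 points, among those with an adjusted p under 0.05, were the far end of Zfp488 (21.7 points), the start of Zfp970 (21.5 points) and the far end of Zfp653 (20.5 points). Just above it stood Zfp42 (26.99 points) and Zfp974 (27.6 points).

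The highest starts were few and unlike each other. Zfp652 had the highest level, 88.4% over 5 positions, with the DBA/2J samples at 95.0%, 96.4% and 98.5% and the PWK/PhJ samples at 73.5%, 73.1% and 83.2%. Its positions lie 209 to 751 bp into the gene, and no position in its promoter was listed in all samples. Zfp872 (78.8%), Zfp42 (59.4%), Zfp541 (46.5%) and Zfp996 (31.8%) followed. For Zfp541 the gene span begins 10070 bp before the RefSeq start, so its 64 positions do not lie at that start. Its A/J samples had 53.8%, 54.6% and 54.3% and its 129S1/SvImJ samples 39.3%, 41.9% and 39.7%, and the span of 13.9 points passed by adjusted p alone (limma, 3.2e-04). Zfp872 lies in a run and the other 4 are single genes.

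The lowest starts were Zfp207 (0.16%, 13 positions), Zfp868 (0.26%, 16 positions) and the shared window between Zfp942 and Zfp943 (0.35%, 14 positions), a pair of genes transcribed away from each other whose starts lie within the same 1000 bp. The strain means of each spanned less than 1 point. Besides Zfp870, the largest mean SD within strains were those of Zfp469 at its lower end (6.26 points) and the start of Zfp42 (6.09 points). Zfp469 had 82.5%, 83.9% and 71.7% in NZO/HlLtJ and 73.3%, 47.4% and 60.3% in WSB/EiJ, with a span of 19.0 points (limma adjusted p = 0.0156).

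Apart from Zfp42, described above, the fixed members with known roles lay below 2.5% at the measured ends listed here. So did 78.9% of all measured Zfp starts. Zfp57 and Zfp445 protect imprinted regions from losing methylation in the early embryo. Zfp57 had no shared position at its start and 1 at its far end. Zfp445 had 0.68% over 24 positions, with the RefSeq start 20845 bp inside the gene span. Zfp809, which silences retroviruses through TRIM28, had 0.58% over 15 positions. The RNA-binding CCCH members had 0.61% (Zfp36 start, 48 positions), 0.80% (Zfp36l1 start) and 0.71% and 0.64% (both ends of Zfp36l2). The Zfp36 far end was also unmethylated, at 1.01% over 55 positions, so that both ends of this gene were unmethylated. None of these ends had a mean far enough from 0 to be tested.

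Runs with at least 5 measured ends numbered 15. On chromosome 17 the run from Zfp871 to Zfp101 (12 genes) had 9 measured ends between 0.42% and 63.0%, of which 2 were tested and both were called, Zfp811 and Zfp870. The run from Zfp677 to Zfp946 (18 genes, chromosome 17) had 12 between 0.35% and 8.32%, with Zfp995 called of 2 tested. On chromosome 7 the run from Zfp84 to Zfp146 (15 genes) had 12 between 0.43% and 97.1%, and that from Zfp180 to Zfp575 (12 genes) had 6 between 3.30% and 97.3%. In the latter all 6 were tested and Zfp180 was called. Over all genes 6.03% of tested ends were called, and the counts per run are too small to set against that share.

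Other runs on chromosome 7 were lower or had a methylated far end. From Zfp607b to Zfp850 (8 genes) 7 starts lay between 0.48% and 3.94%, with Zfp974 highest. From Zfp553 to Zfp629 (8 genes) 8 ends lay between 0.45% and 96.1%, from Zfp628 to Zfp580 (6 genes) 9 between 0.40% and 83.6%, from Zfp787 to Zfp28 (6 genes) 5 between 0.51% and 91.6% and from Zfp329 to Zfp446 (5 genes) 5 between 0.79% and 93.1%. On chromosome 9 the run from Zfp560 to Zfp846 had 5 starts between 0.54% and 0.90%, none of which was tested. In the neighbouring run from Zfp653 to Zfp810 the 6 measured ends ran from 0.49% to 78.8%, with Zfp872 at the top. On chromosome 6 the run from Zfp786 to Zfp746 had 7 starts, of which 6 were low and Zfp777 had 18.5%. The RefSeq start of Zfp777 lies 2210 bp inside the gene span, so its positions do not lie at that start. On chromosome 11 the run from Zfp354c to Zfp354a had 6 ends between 0.36% and 23.2%, and on chromosome 15 that from Zfp251 to Zfp647 had 5 between 1.04% and 97.3%.

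Little of the largest run was read. The 23 genes from Zfp712 to Zfp273 on chromosome 13 have 46 ends, of which 6 were measured, between 0.52% and 3.26%. The 12 genes from Zfp992 to Zfp933 on chromosome 4 have 24 ends, of which 2 were measured, at 0.73% and 4.02%. What strains do at the other ends of these 2 runs was not measured here.

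**Figure D5:**
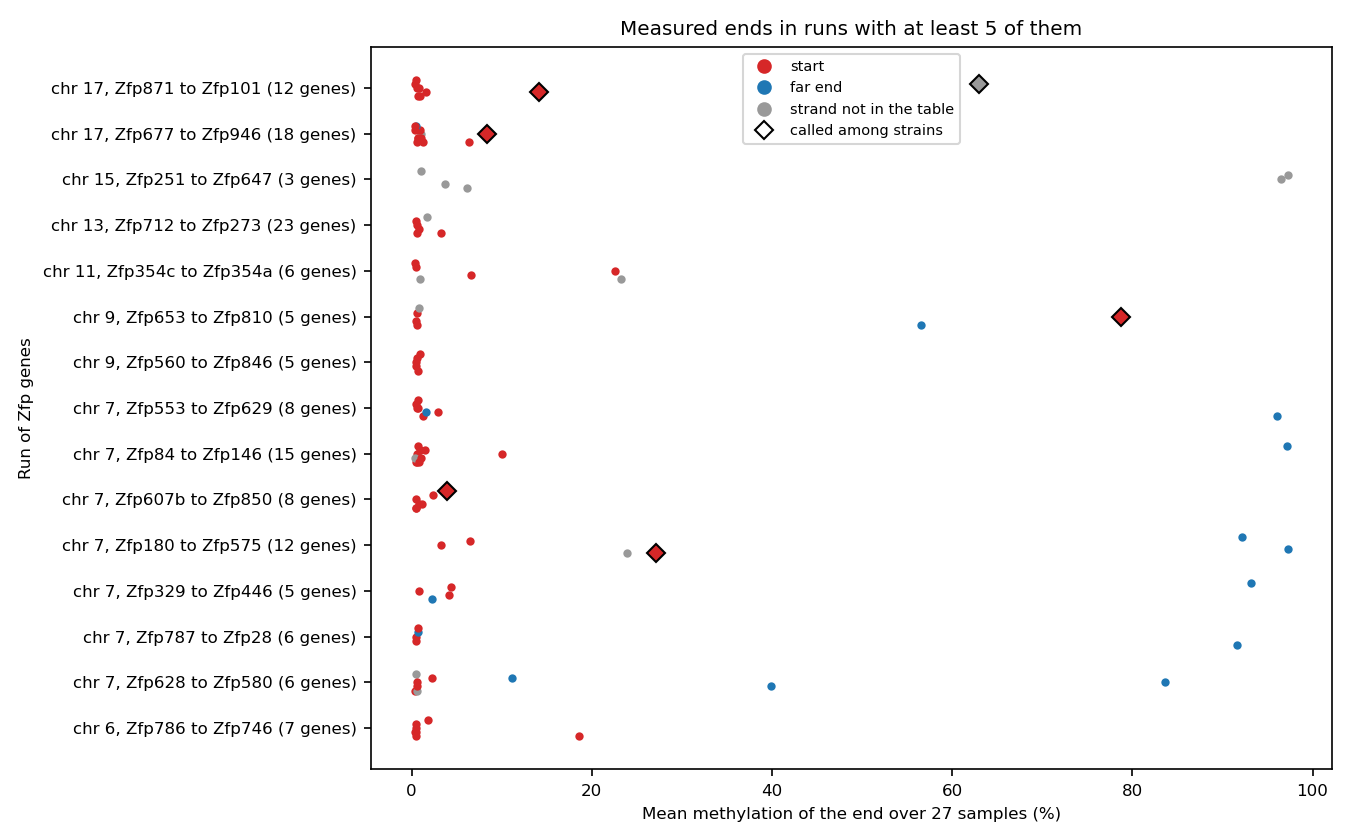
Mean methylation over 27 samples (x axis, %) of each measured end in the 15 runs with at least 5 of them (y axis), coloured by kind of end; diamonds are ends called different among strains. Most starts sit near 0, and the called ends lie in 5 of the runs shown.

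Neighbours and relatives outside the family were read in the same way. The 77 other protein-coding genes that lie inside the runs had 47 measured ends and 25 tested, of which 5 were called, against 6.03% of all ends tested. The genes named Zkscan, Zscan, Zbtb and Zik, which also encode zinc finger proteins, had 57 measured ends on 53 of 68 genes. Their 43 starts had a median of 0.53%, 1 exceeded 10%, and 1 of 13 tested ends was called, beside the same 6.03%. Of 26 genes for partners of KRAB zinc finger proteins, such as Trim28, Setdb1, Dnmt1 and Uhrf1, 21 had a measured start. Of these 20 lay below 2.5%, among them Trim28 (0.38%) and Setdb1 (0.67%), and Chaf1a, a subunit of the histone chaperone CAF-1, was highest at 4.87%. Of their 2 tested ends 0 were called, and the far end of Ehmt2 passed by adjusted p alone (17.8 points, limma adjusted p = 1.0e-05).

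Each sample listed 2904787 to 3156965 positions, 1653370 autosomal positions were listed in all 27, and the median SD within strains of tested Zfp ends was 1.28 to 1.68 points by strain, against 1.35 to 1.71 for other ends. C57BL/6J samples shared 17876 positions near Zfp ends. Of these, 4.42% were listed in no CAST/EiJ sample and 4.55% in no PWK/PhJ sample, against 1.48 to 2.11% in the other strains. Near all gene ends these shares were 3.88%, 3.97% and 1.29 to 1.84%. Such positions are not among the members, and sequence differences between strains were not analysed here. The C57BL/6J files name the mitochondrial chromosome differently from the others. Of 8 hepatocyte marker genes 2 had a measured start, Apoa2 (0.79%) and Hnf4a (7.94%), so the cell type could not be checked by its markers. Of 5 measured starts among 15 marker genes of other liver cells 3 exceeded 10%: Krt7 (24.3%), Epcam (17.03%) and Des (10.5%). Lrat (3.12%) and Kdr (1.56%) did not. Over all starts outside the Zfp genes 11.02% exceeded that level.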

How the data were processed

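Reduced representation bisulfite sequencing of 27 samples was analysed, 3 per strain. Per the submitters' processing notes, reads were handled with Trim Galore 0.6.3, Bowtie2 and Bismark 0.22 on GRCm38 (mm10). The authors deposited percent methylation per position, without coverage, so depth is unknown. The planned test on percentages was used, and its form planned for files with read counts did not apply. The positions were read as GRCm38, 1-based: 272854 of 272860 positions inside RefSeq promoter windows lay on a CG. Sequences and strands came from RefSeq promoters (GRCm38.p6), and gene spans from the gene table of that assembly.

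End means were computed in Python 3.11.15 (numpy 2.4.6, pandas 2.3.3) and tested with limma 3.58.1 in R 4.3.3 over all autosomal protein-coding ends, without covariates, with an offset of 5. Promoters were aligned with Biopython 1.88 and figures drawn with matplotlib 3.10.9. In data simulated for the comparison of 9 strains, 98.5% of ends shifted by 30 points among 5925 were recovered. The members, the gene lists and the tests were chosen with earlier results of these data known. Named are called ends, the 5 highest and 3 lowest starts, the 3 ends with the largest SD within strains, runs with at least 5 measured ends and fixed members. Other Zfp names, such as those of further far ends, of ends just below the span limit and of a run on chromosome 4, were chosen after their values were seen. Replicate numbers did not pair samples across strains: deviations correlated over 0.1 in 0 of 76 pairs with the same number. Positions on both strands of a CpG were kept separate. Alternatives covered offset, filters, spans, windows, strains and left-out samples.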

Additional observations from a re-analysis of the deposited data

How the results depend on the processing

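Of 10 called Zfp ends, the count became 23 with a span of 10 points, 3 with 50 points, 43 with no minimum span, 5 with windows of 500 bp (45 ends tested) and 6 with at least 10 positions. It was 6 when genes sharing promoter sequence were left out, an alternative added after seeing the data (82 ends tested). Leaving out each sample in turn gave 9 to 11. The count of 157 called positions became 75 at 50 points, 72 of 864 tested with windows of 500 bp (8.33%), 310 of 3326 with 2 kb (9.32%) and 78 without CAST/EiJ and PWK/PhJ, and ran from 141 to 163 on leaving out each sample. With the replicate number as a block, 10 ends and 130 positions were called.

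The clustered minus single difference in start level, -0.592 points, became 0.403 points with windows of 2 kb, 1.15 with at least 3 positions and 0.175 with positions weighted equally. It was -0.0250 with at least 10 positions, -0.169 with runs at most 100 kb and -0.920 with runs at most 500 kb apart, and ran from -0.646 to -0.560 on leaving out each sample. The difference in the share above 10%, 1.38 points, became -1.54 with windows of 500 bp, 2.45 with runs at most 100 kb apart, 3.75 with at least 3 and 3.65 with at least 10 positions, and ran from 0.415 to 1.38 on leaving out each sample. The causes were not tested. Runs were also defined in 4 other ways, added after seeing the data. Of 39, 48 and 49 clustered ends tested 7 were called, and 6 of 30 with runs of at least 5 genes. Single genes gave 3 of 36 to 43. Over all genes 6.03% of tested ends were called.

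For the 10 named ends, 422 of the 435 values under alternatives in which they entered the test were still called. In 15 more an end did not enter it: Zfp971 and Zfp974 without CAST/EiJ and PWK/PhJ, where 7 of 83 ends were called, and otherwise under narrower windows, more positions, a mean of 10 to 90% or strands averaged. Besides the 7 ends under 50 points at that limit, the lost calls were Zfp811 without CAST/EiJ and PWK/PhJ, and Zfp42 with windows of 2 kb (18.03 points), without C57BL/6J, without 1 of 2 samples named above, and with strands averaged (limma adjusted p = 0.0636). The 435 values are not independent checks. A span of 10 points or none keeps every call, and the losses at 50 points follow from the spans already given. Most of the other values leave out 1 sample, often of a strain that does not set the span. Unknown depth limits the reading of ends with few positions.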

Other observations

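Outside the protein-coding genes, the ends of 18 autosomal Zfp genes of other types, such as pseudogenes and long non-coding RNAs, were read in the same way but not tested. Zfp520-ps, a pseudogene on chromosome 16, had 9 positions near both of its ends with a mean of 75.9% in CAST/EiJ and 13.3% in 129S1/SvImJ, the lowest strain. Zfp572, a transcribed pseudogene on chromosome 15, had 21.7% in A/J and 3.99% in 129S1/SvImJ at its lower end over 26 positions. The antisense gene Zfp335os was unmethylated at one end (0.54%, 127 positions) and methylated at the other (96.3%, 6 positions).

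Several Zfp starts that were too sparsely listed to be measured had high values at their few positions. Zfp229 had 94.9% and Zfp977 95.2% over 4 positions each. For Zfp229 the RefSeq start lies 2769 bp from the end of the gene span, so its positions do not lie at that start. Zfp772, also with 4 positions, had strain means that spanned 34.1 points, with A/J highest and PWK/PhJ lowest. These were picked after their values were seen and were not tested.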
